A study of Canis lupus familiaris with 10 samples.

Results

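The genes described here are the receptors and tissue-derived cytokines of type 2 immunity in canine cutaneous histiocytoma (CCH), a skin tumor of dogs formed by cells of the Langerhans cell lineage. The set comprised the 9 genes IL13RA1, IL13RA2, IL4R, IL1RL1, IL33, TSLP, CRLF2, IL31RA and OSMR, out of 23266 genes in the deposited table. The genes were listed by name, and all 9 were present. IL13RA1 was selected on its normalized read counts, because it was lower in late tumors. Its difference between the stages is therefore a description, and no test of it is reported. Of the 9 genes, 6 passed the filter for low values (a normalized read count of at least 10 in at least 5 libraries), as did 12397 genes in all. IL33 and TSLP are cytokines, so that the set holds 7 receptor chains and 2 ligands.

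The study compared early with late CCH by QuantSeq 3′ RNA-Seq of formalin-fixed, paraffin-embedded (FFPE) tumors, with 5 libraries per stage, each from the tumor of a different dog. Early tumors belonged to group 1 and late tumors to group 3 of the histological scheme of Cockerell and Slauson, and the labels add lymphocyte enrichment for the late group. All were naturally occurring tumors of privately owned dogs, with no treatment given in the labels and ages from 0.5 to 5 years in the early group (given for 4 dogs) and from 1.5 to 9 years in the late group. The libraries held between 2973125 and 4439709 reads assigned to genes.

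The label of the tissue was checked against marker genes, and the stages differed in more than the genes described here. CD207, the defining Langerhans cell gene, was not analysed here. Of the other Langerhans and dendritic cell markers, CD1A8 had mean normalized read counts of 180 and 16.8 in early and late tumors and FLT3 of 292 and 40.6. Of the 7 past the filter, 6 were lower in late tumors, among them ITGAX with means of 656 and 517. IRF8 alone was higher, with means of 198 and 514. The summed level of the 8 markers present overlapped (1175 to 2992 in early, 1197 to 1693 in late). The summed level of 10 T cell markers was 81.9 to 2460 in early and 3771 to 6358 in late tumors. RNA quality, as the share of fragments over 200 bases (DV200) in the labels, was 68.5% ± 2.46 in early and 73.2% ± 2.09 in late tumors (SD, n = 5 each). The study lists separate RNA extraction batches for the stages, so that stage and extraction cannot be told apart. In bulk tissue, fewer cells of a type and less RNA per cell cannot be told apart either. Columns of the table can be linked to a stage but not to a dog, and the numbers 1 to 5 given to libraries of a stage are names without an order.

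Type 2 cytokines act in skin through receptors that share chains. IL-4 binds IL4R, which pairs with IL2RG on lymphocytes and other blood-derived cells, or with IL13RA1 on many other cell types including myeloid and epithelial cells. The receptor with IL13RA1 also responds to IL-13, and both forms signal through Janus kinases to the transcription factor STAT6, whereas IL13RA2 binds IL-13 with high affinity and is known as a decoy. IL-33 and TSLP are alarmins released by epithelial and stromal cells. IL-33 is sensed by IL1RL1 (also named ST2) with IL1RAP, and TSLP by CRLF2 with IL7R. IL-31, the itch cytokine that is a drug target in dogs with atopic dermatitis, is sensed by IL31RA with OSMR, and OSMR also pairs with IL6ST to sense oncostatin M.

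IL13RA1 was the member with the highest level at both stages. Its normalized read counts were 1191, 1121, 974, 1145 and 1413 in early libraries 1 to 5, and 324, 324, 411, 378 and 248 in late libraries 1 to 5. The lowest early library thus lay above the highest late library, and IL13RA1 was the only member past the filter without overlap between the stages. The mean was 1169 ± 159 in early and 337 ± 62.1 in late tumors (SD, n = 5 each), 3.47 times higher in early tumors. On the log2(value + 1) scale, the difference of late minus early (log2FC) was -1.80 with a standard error (SE) of 0.16. These values rest on 6303 reads in early and 1697 reads in late libraries. The mean of IL13RA1 was higher than that of 97.0% of the genes tested in early and of 85.7% in late tumors.

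The criteria applied to all genes were a log2FC of 1 or more in either direction and a limma p of 0.05 or less after Benjamini-Yekutieli (BY) adjustment. By these, 138 of the 12397 genes tested (1.11%) were called lower in late tumors. IL13RA1 was part of that fit, but no call is given for it. No overlap between the stages was seen for 1 of the 6 members past the filter and for 12.0% of all genes tested. Because IL13RA1 was chosen for this difference, nothing is read from these counts. Within a stage, IL13RA1 varied little between dogs. Its coefficient of variation was 13.6% in early and 18.4% in late tumors, and its within-stage SD on the log2 scale was 0.24, with a smaller SD in 12.2% of the genes tested. Choosing a gene for its fall in these libraries favors a small spread within a stage, so that this is a description too. The log2FC ranged from -1.88 to -1.70 over 19 alternative settings, each left-out library included.

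**Figure D1:**
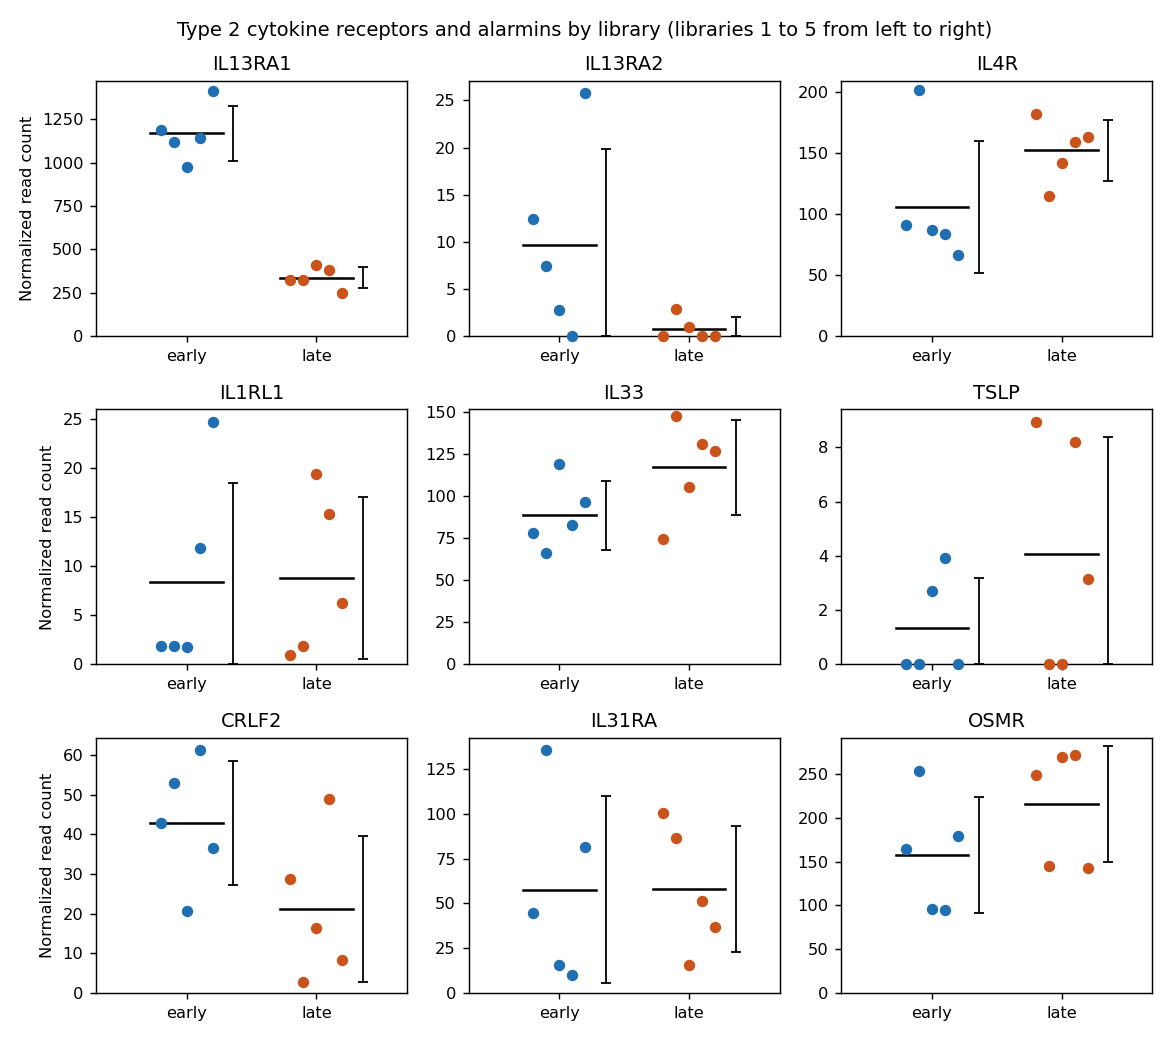
Normalized read count (linear axes, separate scale per gene) of the 9 genes in the 5 early and 5 late CCH libraries. Points are libraries, the horizontal line is the mean, and the bar beside it spans 1 SD on either side, ending at 0 where it would go lower. IL13RA1 lies between 974 and 1413 in early and between 248 and 411 in late libraries, while the values of the other 8 genes overlap between the stages.

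None of the other 8 members passed the criteria, against 2.17% of all genes tested in either direction, 1.06% of them in the direction of higher values in late tumors. IL4R, the chain shared by both forms of the IL-4 receptor, had normalized read counts of 91.4, 202, 86.8, 83.5 and 66.6 in early and of 182, 115, 142, 160 and 164 in late libraries. Early library 2 was the highest of all 10, and the other 4 early libraries lay below every late library. The means were 106 ± 54.4 in early and 153 ± 25.2 in late tumors (SD, n = 5 each). The log2FC of IL4R was 0.62 (SE 0.27, 95% confidence interval 0.03 to 1.21) with a BY-adjusted p of 1 in limma. Without early library 2 it was 0.88, with an adjusted p of 0.127, the lowest over its alternatives. That library also had the highest summed levels of macrophage markers among early libraries (10504, against 2349 to 5290 in the others) and of fibroblast markers (60980, against 7831 to 46376), and the part of these cells in its IL4R value was not tested.

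IL13RA2, the decoy for IL-13, was close to the limit of detection. Early libraries held 13, 8, 3, 0 and 24 of its reads and late libraries 0, 3, 1, 0 and 0, that is 48 reads in all early and 4 in all late libraries. The limit that a count of 0 allows, 3 reads, was worth 2.36 to 3.22 normalized reads, so that 3 of 5 early libraries lay above it. The mean normalized read count was 9.66 ± 10.2 in early and 0.765 ± 1.24 in late tumors (SD, n = 5 each). IL13RA2 did not pass the filter, and in the limma fit without a filter its log2FC was -2.11 (SE 0.82, 95% confidence interval -3.87 to -0.34) with an adjusted p of 1. This fitted value depends on the pseudocount of 1, since 3 late libraries held no read. The stages overlapped, and 1 early library held no read either.

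IL31RA and OSMR, the chains of the IL-31 receptor, did not differ detectably between the stages. The normalized read counts of IL31RA were 44.7, 136, 15.4, 10.2 and 81.6 in early and 100, 86.6, 15.5, 51.1 and 36.7 in late libraries, which is a wide spread at both stages. Its means of 57.6 ± 52.2 and 58.1 ± 35.1 (SD, n = 5 each) were nearly equal, and the log2FC was 0.32 (SE 0.69, 95% confidence interval -1.18 to 1.82, BY-adjusted p of 1 in limma). The interval leaves room for a change of more than 1 in either direction, and without early library 4 the log2FC was -0.13. A smaller within-stage SD than that of IL31RA was found in 94.1% of the genes tested.

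OSMR had normalized read counts of 165, 253, 95.9, 95.3 and 179 in early and of 250, 145, 269, 272 and 143 in late libraries. Late libraries 3 and 4 lay above all early libraries, and the other 3 late libraries lay within the early range. The means were 158 ± 65.8 and 216 ± 66.3 (SD, n = 5 each), with a log2FC of 0.49 (SE 0.30, 95% confidence interval -0.17 to 1.15, BY-adjusted p of 1 in limma). OSMR exceeded IL31RA in 10 of 10 libraries. QuantSeq 3′ yields a single fragment per transcript, so that read counts need no correction for length between genes. They still depend on the annotated 3′ end of each gene, which the study extended in a second counting round. Comparisons of level between genes, here and elsewhere in the text, carry that limit. The median of the ratio of OSMR to IL31RA within a library was 3.68 (1.86 to 9.31) in early and 3.89 (1.67 to 17.4) in late tumors. Early library 2 was the highest early library in IL4R, IL31RA and OSMR alike, the same library with the high macrophage and fibroblast markers.

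IL33 was present at a moderate level in every tumor. Its normalized read counts were 78.1, 66.1, 119, 82.7 and 96.6 in early and 74.6, 147, 106, 131 and 127 in late libraries. The ranges overlapped, although 3 of 5 late libraries lay above all early ones. The means were 88.6 ± 20.4 and 117 ± 28.1 (SD, n = 5 each), and the log2FC was 0.39 (SE 0.23, 95% confidence interval -0.11 to 0.89, BY-adjusted p of 1 in limma). Its receptor chain IL1RL1, which marks mast cells and type 2 lymphocytes, was scarce. It had 2, 2, 2, 15 and 23 reads in early and 1, 2, 20, 15 and 6 reads in late libraries, which gave 44 reads in each stage. In 5 of the 10 libraries there were no more than 2 reads, and the fit without a filter gave a log2FC of 0.17 (SE 0.88, 95% confidence interval -1.70 to 2.05, adjusted p of 1).

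TSLP was near the limit of detection, with 0, 0, 3, 5 and 0 reads in early and 9, 0, 0, 8 and 3 reads in late libraries. At this depth, 5 of the 10 libraries held no read of this cytokine, and the log2FC of the fit without a filter was 0.87 (SE 0.79, 95% confidence interval -0.82 to 2.57, adjusted p of 1 in limma). CRLF2, the chain specific to TSLP, had normalized read counts of 42.8, 53.0, 20.8, 61.4 and 36.5 in early and of 28.8, 2.85, 16.5, 49.1 and 8.39 in late libraries. Late libraries 2, 3 and 5 lay below all early ones, and late library 4 lay among the higher early libraries. The means were 42.9 ± 15.6 and 21.1 ± 18.4 (SD, n = 5 each). The log2FC of CRLF2 was -1.40 (SE 0.61, 95% confidence interval -2.73 to -0.07) with a BY-adjusted p of 1 in limma. It was -0.89 without late library 2 and -1.82 without late library 4. The lowest BY-adjusted p of CRLF2 over its alternatives was 0.698, in limma without late library 4. With Benjamini-Hochberg adjustment in place of BY, the adjusted p in limma was 0.140.

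The order of the members by mean level was the same down to the sixth place at both stages, namely IL13RA1, OSMR, IL4R, IL33, IL31RA and CRLF2. In early tumors these were followed by IL13RA2, IL1RL1 and TSLP, and in late tumors by IL1RL1, TSLP and IL13RA2. Between neighbors in this order, only the ranges of IL13RA1 and OSMR in early tumors did not overlap. Late tumors had no such gap, but IL13RA1 was above OSMR within each of the 5 late libraries. The median ratio of IL13RA1 to OSMR within a library was 7.88 in early and 1.53 in late tumors.

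As a share of the summed normalized read count of the 9 genes, IL13RA1 made up 71.6% ± 6.13 in early and 36.8% ± 3.70 in late tumors (SD, n = 5 each). The sum itself was 1641 ± 247 in early and 915 ± 132 in late tumors (SD, n = 5 each). Without IL13RA1, the sum of the other 8 was 472 ± 154 in early and 578 ± 87.0 in late tumors. The shares of OSMR (9.37% and 23.1%), IL4R (6.44% and 16.9%) and IL33 (5.60% and 13.2%) were larger in late tumors, where the total was smaller. CRLF2 made up 2.62% in early and 2.15% in late tumors. Because the shares add up to the whole, they follow from the choice of IL13RA1 and are a description.

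**Figure D2:**
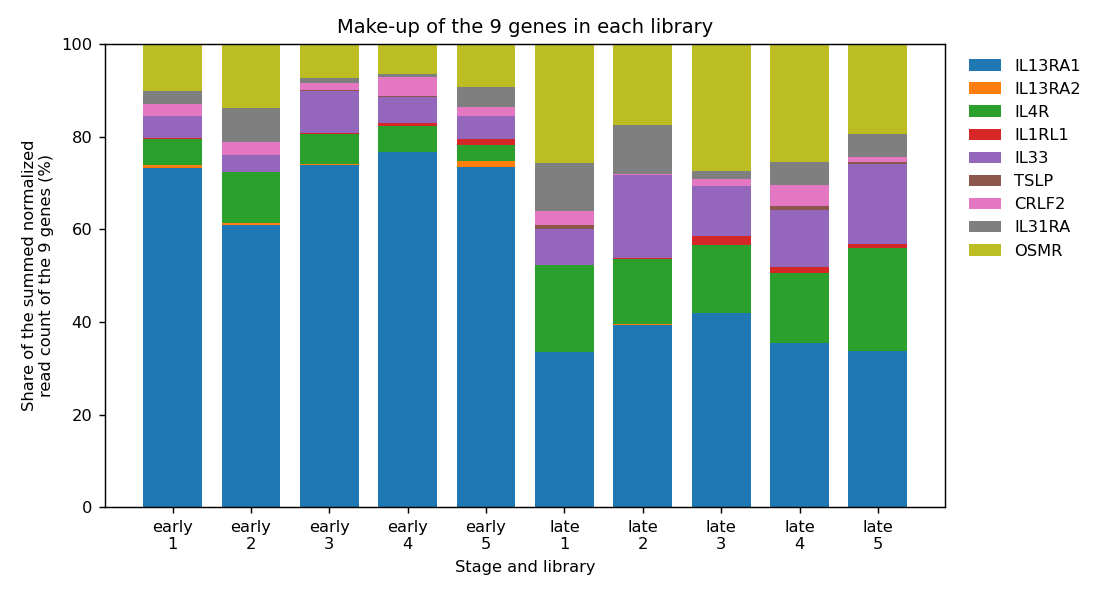
Share (percent) of each of the 9 genes in their summed normalized read count, 1 stacked bar per library, for 5 early and 5 late CCH libraries. IL13RA1 takes between 60.9% and 76.6% in early libraries and between 33.4% and 41.9% in late libraries.

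The balance of the chains that can pair with IL4R differed between the stages as a description, since it contains IL13RA1. The ratio of IL13RA1 to IL4R within a library had a median of 13 (5.55 to 21.2) in early and 2.37 (1.51 to 2.88) in late tumors. IL2RG, the common gamma chain that pairs with IL4R on lymphocytes, had normalized read counts of 98.1, 791, 249, 338 and 367 in early and 1203, 861, 1013, 683 and 855 in late libraries. IL2RG was below IL13RA1 in each of the 5 early libraries and above it in each of the 5 late libraries. The median ratio of IL2RG to IL13RA1 was 0.260 (0.0823 to 0.705) in early and 2.65 (1.81 to 3.71) in late tumors. By itself, IL2RG had a log2FC of 1.60 (SE 0.42, 95% confidence interval 0.69 to 2.50) with a BY-adjusted p of 0.233 in limma, and did not pass the criteria. T cells, which express IL2RG, had higher summed markers in every late than in every early library, and their part in this balance was not tested.

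The other partner chains showed no call. IL1RAP, the partner of IL1RL1, had means of 222 ± 216 in early and 79.8 ± 46.6 in late tumors (SD, n = 5 each; log2FC -0.86). It exceeded IL1RL1 in 10 of 10 libraries. IL7R, the partner of CRLF2, had means of 350 ± 122 and 419 ± 142 (SD, n = 5 each; log2FC 0.24), and the ratio of IL7R to CRLF2 ranged from 5 to 15.8 in early and from 5.06 to 170 in late libraries. IL6ST, which pairs with OSMR, was at 317 ± 120 and 334 ± 33.7 (SD, n = 5 each; log2FC 0.16) and above OSMR in each library. Of the list of 12 receptor chains related to the members, 8 were tested and none passed the BY criteria, with a median log2FC of 0.20 against -0.004 over all genes tested. CSF2RA, a chain of the GM-CSF receptor, had a log2FC of 1.20 (BY-adjusted p of 0.202 in limma), and IL17RA, a chain of the IL-25 receptor, 0.55 (0.126). At the low end, IL17RB, the other chain of the IL-25 receptor, had a log2FC of -0.35, and CSF2RB, a signaling chain shared with the IL-5 receptor, one of 0.04. With Benjamini-Hochberg (BH) adjustment in place of BY, by which 9.04% of all genes tested were called, IL2RG and CSF2RA passed.

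Apart from IL33, the ligands present in the table had few reads. IL13 had 2 reads, both in a single early library, and none in late libraries, while IL4, IL31 and IL25 were not analysed here. IL5 had 15 reads in early and 1 in late libraries, and IL9 had 7 and 3. Oncostatin M (OSM) was low, with mean normalized read counts of 12.6 ± 12.5 and 16.8 ± 9.96 (SD, n = 5 each) and a log2FC of 1.06 (BY-adjusted p of 1 in limma). OSMR was above OSM in 10 of 10 libraries. Of the 9 ligands listed, only IL33 and OSM passed the filter, and neither passed the criteria.

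Downstream of the receptors, most kinases and transcription factors had similar levels at both stages. STAT6, the transcription factor activated by IL-4 and IL-13, had a mean of 213 ± 35.0 in early and 214 ± 35.1 in late tumors (SD, n = 5 each), with a log2FC of 0.01 (SE 0.17, 95% confidence interval -0.36 to 0.37). JAK1, JAK2 and TYK2, the kinases bound to IL4R and IL13RA1, had log2FC values of 0.21, -0.10 and 0.03 with BY-adjusted p-values of 1 in limma. Of 13 kinases, STATs and adaptors tested, 1 rose and 1 fell in late tumors, and the median log2FC was 0.01. MYD88, the adaptor of the IL-33 receptor, had a log2FC of -0.57 (BY-adjusted p of 0.322). STAT3, which acts below OSMR, had a log2FC of 0.21.

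The gene that rose was JAK3, the kinase bound to IL2RG. Its normalized read counts were 103, 104, 100, 59.9 and 69.8 in early and 209, 209, 196, 307 and 201 in late libraries, without overlap. The mean went from 87.4 ± 21.0 to 224 ± 46.4 (SD, n = 5 each), with a log2FC of 1.36 (SE 0.21, BY-adjusted p of 0.0251 in limma). IRS1, an adaptor that docks to IL4R as well as to the insulin receptor, fell. Its normalized read counts were 161, 120, 76.0, 85.9 and 74.1 in early and 14.9, 22.8, 30.0, 38.9 and 18.9 in late libraries. The mean went from 103 ± 37.1 to 25.1 ± 9.50 (SD, n = 5 each), with a log2FC of -2.01 (SE 0.32, BY-adjusted p of 0.0276). Its relative IRS2 had means of 1443 ± 367 and 821 ± 270 (SD, n = 5 each), with a log2FC of -0.85 that did not pass (BY-adjusted p of 0.289). JAK3 and IRS1 were each called in 4 of 10 fits with a library left out. JAK3 lost its call without early library 1 or 5 or late library 1, 2, 4 or 5, and IRS1 without early library 1, 2 or 5 or late library 1, 2 or 5. The adjusted p did not exceed 0.0874 in these fits.

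Of 11 negative regulators tested, only SIGIRR, an inhibitory member of the IL-1 receptor family that restrains signaling by IL1RL1, passed the BY criteria. It rose from 36.7 ± 14.8 to 107 ± 11.7 (SD, n = 5 each), with a log2FC of 1.60 (SE 0.28, BY-adjusted p of 0.0436 in limma). Its early values of 47.6, 55.8, 32.6, 28.4 and 19.3 all lay below its late values of 105, 111, 117, 112 and 87.1. Of the 10 fits with a library left out, only that without early library 2 kept the call, with an adjusted p of up to 0.149 in the others, and it was also lost without a filter and in edgeR. None of the feedback inhibitors of the SOCS family passed the BY criteria. SOCS1 had a log2FC of 2.23 (BY-adjusted p of 0.492), SOCS2 of -1.68 (0.133) and SOCS5 of -0.89 (0.0785), while SOCS3 and the related CISH were near 0 (-0.09 and 0.10). PTPN1, a phosphatase, had a log2FC of 0.49 (0.942), and PTPN6, another phosphatase, one of -0.46 (1). The median of the list was 0.10. With BH adjustment, by which 9.04% of all genes tested were called, SIGIRR, SOCS1 and SOCS2 passed. The stages did not overlap for 3 of the 11 genes (SIGIRR, SOCS2 and SOCS5), against 12.0% of all genes tested.

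Across these pathway lists, without the members themselves and with each gene counted once, 57 genes were tested, 2 rose and 1 fell, which is 5.26% against 2.17% of all genes tested. The first share rests on 3 genes. The median log2FC of the 57 genes was 0.16. No overlap between the stages was seen for 10 of the 57, against 12.0% of all genes tested.

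**Figure D3:**
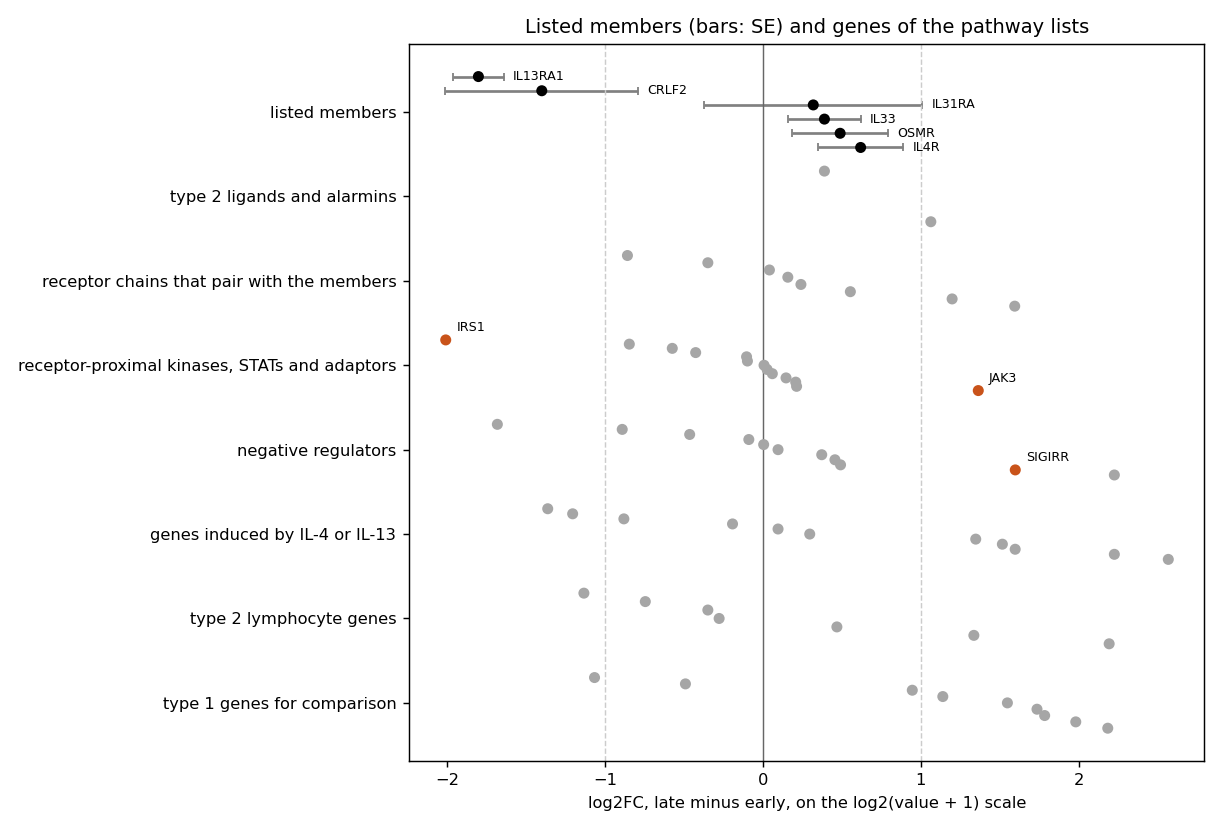
log2FC of late minus early CCH (log2(value + 1) scale) of the 6 members past the filter, with bars for the SE, and of the genes tested in 7 pathway lists, 1 point per gene, 5 libraries per stage. Dashed lines mark a log2FC of 1 in either direction, and orange points are the genes called in the lists, JAK3, SIGIRR and IRS1.

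Genes known to be induced by IL-4 or IL-13 gave no call among 11 tested, and their log2FC values lay on both sides of 0, with a median of 0.30. The highest was TGM2, a transglutaminase, with a mean of 28.5 ± 26.4 in early and 149 ± 68.2 in late tumors (SD, n = 5 each; log2FC 2.57, BY-adjusted p of 0.0731 in limma). It was followed by SOCS1 and by CCL13, a chemokine, with a log2FC of 1.60. The lowest values were those of F13A1, a coagulation factor subunit of macrophages (-1.36), POSTN, a matrix protein (-1.20), and MRC1, the mannose receptor (-0.88), with adjusted p-values of 0.861, 0.489 and 0.729. With BH adjustment, SOCS1, TGM2 and POSTN passed.

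Among 7 genes of type 2 lymphocytes tested, none passed, and the median log2FC was -0.28. CCR4, a chemokine receptor of these cells, had a log2FC of 2.19, RORA 1.34 and MAF 0.47, all of them transcripts also found in other T cells. HPGDS, the prostaglandin D synthase of mast cells and type 2 lymphocytes, had one of -1.13, KLRG1 of -0.74 and IL17RB of -0.35. GATA3, the defining factor of these cells among lymphocytes, was at 449 ± 201 and 356 ± 112 (SD, n = 5 each; log2FC -0.28). In early libraries 1 and 5, which had the lowest values of the T cell marker CD3E (2.86 and 30.1), GATA3 was at 393 and 436. The cell source of GATA3 was not tested.

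The list of type 1 genes, set beside these for comparison, likewise gave no call among 9 tested, with a median log2FC of 1.55. IFNG had a log2FC of 2.19 (BY-adjusted p of 1 in limma), CXCR3 of 1.98 (0.265) and CXCL10 of 1.79 (1). The normalized read count of CXCL10 was 15.2 in early library 1, against 888 to 3526 in the other early and 2138.4 to 3424.5 in late libraries. The lowest were IFNGR1 and IFNGR2, the chains of the interferon gamma receptor, with -1.07 and -0.49. Only CXCR3 passed with BH adjustment. The T cell list, of which all 10 genes had positive log2FC values from 2.29 (CD8A) to 4.00 (CD28), had a median of 3.51 and 1 BY call (CD6), and the part of T cell content in the values of the type 1 and type 2 lymphocyte lists was not tested.

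Marker genes of cell types that can express the members differed between the stages to varying degrees. The summed level of 7 mast cell and basophil markers was 155 to 316 in early and 86.0 to 141 in late tumors, without overlap. The highest and lowest log2FC of that list were those of CMA1, a mast cell chymase (0.92), and FCER1A, a chain of the high-affinity IgE receptor (-2.47), which fell with a BY-adjusted p of 0.0401 in limma. FCER1A is also expressed by dendritic cells, and without it the sum of the other 6 markers overlapped, at 49.4 to 165 in early and 70.6 to 116 in late tumors, a sum taken after seeing the data. All 10 keratinocyte markers had negative log2FC values, from -1.56 (DSG1) to -0.04 (KRT15), but their summed level varied widely, from 999 to 16948 in early and from 695 to 8608 in late tumors. The markers of endothelium, a cell type that holds IL33 in some species, summed to 536 to 992 in early and 674 to 1327 in late tumors. The part of these cells in the values of the members was not tested.

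The remaining lists overlapped between the stages in their summed level, and no marker present in the table was at 0 in all 10 libraries. Macrophage markers summed to 2349 to 10504 in early and 5681 to 11214 in late tumors, with log2FC values from -0.36 (CSF1R) to 2.25 (MSR1). B cell markers summed to 479 to 721 and 599 to 3147, with values from -0.28 (CD22) to 4.67 (CD79B), and late library 3 was the highest. Fibroblast markers summed to 7831 to 60980 and 10886 to 36252. The 3 eosinophil markers present summed to at most 63.3 in early and 25.6 in late tumors. Langerhans and dendritic cell markers ranged from a log2FC of -3.80 (CD1A8) to 1.27 (IRF8), and FLT3 fell (log2FC -2.89, BY-adjusted p of 0.0434 in limma).

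The genes with the pattern most like that of IL13RA1 were sought over the 10 libraries. The measure of likeness was the root mean square difference of log2(value + 1), each gene centered on its own mean. Over 11117 genes compared, the 5 nearest were CCDC92 (0.285), MAML3 (0.289), UBL3 (0.289), SAMD1 (0.296) and ALDH3A2 (0.315), while the median of all genes was 1.04 and the gene at place 100 had 0.471. Like IL13RA1, these genes were higher in each early than in each late library, with log2FC values of -1.80, -1.61, -1.60, -1.77 and -1.51. This shared difference follows from the search, since IL13RA1 was picked for its fall, and is a description. UBL3, a ubiquitin-like protein, had mean normalized read counts of 1555 ± 308 and 508 ± 75.7 (SD, n = 5 each), close to the level of IL13RA1, and MAML3, a coactivator of Notch signaling, had 132 ± 16.9 and 43.2 ± 10.3 (SD, n = 5 each). ALDH3A2 encodes a fatty aldehyde dehydrogenase. Among the members, CRLF2 was the nearest to IL13RA1 (0.940), followed by IL33 (1.17), OSMR (1.21), IL4R (1.31) and IL31RA (1.58). All but CRLF2 were farther from it than the median gene. The measure includes the difference between the stages, for which IL13RA1 was picked. The positive log2FC values of IL33, OSMR, IL4R and IL31RA thus place them far from it, and nothing more is read from these distances. The 5 names depend on single libraries, since between 1 and 4 of them stayed among the 5 nearest when a library was left out.

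**Figure D4:**
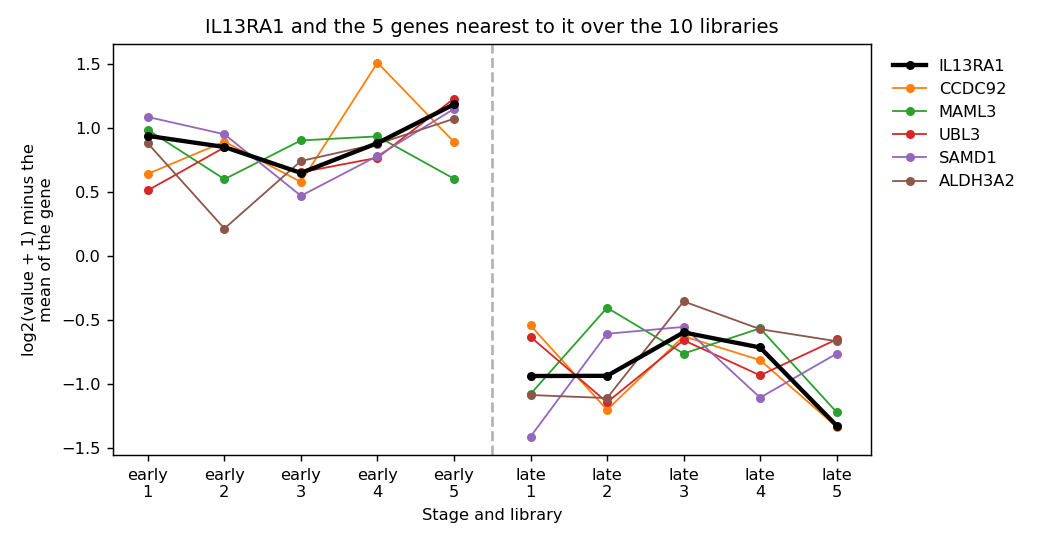
log2(value + 1) of IL13RA1 (black) and of the 5 genes with the smallest root mean square difference to it, each minus its own mean over the 10 libraries. The x axis lists the 5 early and then the 5 late libraries, and lines within a stage only help to follow a gene. Each of the 6 genes lies above its mean in early and below it in late libraries.

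The neighbors of the members on the chromosomes, read by name from the RefSeq annotation of the dog assembly UU_Cfam_GSD_1.0, did not share a pattern. DOCK11, next to IL13RA1, had means of 221 ± 25.8 and 162 ± 8.48 (SD, n = 5 each; log2FC -0.44, BY-adjusted p of 0.516 in limma). IL21R, the receptor gene next to IL4R, had means of 49.6 ± 40.2 and 237 ± 54.4 (SD, n = 5 each), with a log2FC of 2.80 (0.117), while NSMCE1 on the other side of IL4R was at 160 in both stages. CSF2RA lies next to CRLF2 and had a log2FC of the opposite sign (1.20 against -1.40). IL6ST lies next to IL31RA, its relative among the receptor chains, and neither was called.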

How the data were processed

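Gene expression in 10 FFPE tumors, 5 per stage, had been measured with QuantSeq 3′. Per the methods, the authors trimmed reads with Cutadapt, aligned them with STAR to CanFam3.1 with RefSeq annotation and counted them with featureCounts. Unassigned reads were counted again on genes extended by 2 kb at the 3′ end, and multi-mapped reads were split evenly. Tool versions are not given in the sources used here. The deposited signal is a normalized read count, normalized by the authors by a method that is not given for this table. From the values, each library had been divided by 1 factor, since all 166096 values above 0 were whole multiples of 1 read (100%, tolerance 1e-06). No parts of a read were seen although multi-mapped reads were split, and the sources used here do not say why. Another 11 value columns match no sample and were not used. Columns show the stage but not the sample, so DV200 and age could not be linked to libraries.

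Normalized read counts of the 12397 genes with 10 or more in 5 or more libraries were tested on the log2(value + 1) scale with limma 3.58.1 (mean-variance trend, all 10 libraries, no covariates) in R 4.3.3, with BY adjustment as in the study. Calls needed a BY-adjusted p of 0.05 or less and a log2FC (late minus early) of 1 or more in either direction. This scale understates the change of low genes. P-values set the difference between the stages against the spread between dogs within a stage, moderated by that of all genes tested. Members under the filter were fitted with all genes above 0 in any library. Alternatives were pseudocounts 0.5 and 5, no filter, a mean of at least 50, TMM or column total scaling, BH adjustment, robust moderation, edgeR 4.0.16 and DESeq2 1.42.0 on the recovered reads, and each library left out. The limma script was tested on simulated data. Intervals are 95% confidence intervals of the fit, and the limit of 3 reads covers counting error only.

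The members and all gene lists were chosen with earlier results of these data known. Named are the 9 members, in each pathway list the called genes, the 3 highest and 3 lowest log2FC and the binding partners of the members, in marker lists the extremes, and the 5 genes nearest to IL13RA1 without LOC symbols. GATA3, SOCS3, CISH, CD6, FLT3, FCER1A, IL5, IL9 and the chromosomal neighbors were named in addition, after their values were seen. A gene that the rule names is not reported here. Of the table's symbols, 19767 matched the RefSeq table of UU_Cfam_GSD_1.0, a newer build than the files use, which served for neighbor names only.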

Additional observations from a re-analysis of the deposited data

Results flagged for a closer look

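In groups of 5 libraries, a library was examined more closely when its gap to the nearest other library, divided by the range of the group, exceeded Dixon's critical value of 0.71. The 44 groups examined were those of the members, of JAK3, IRS1 and SIGIRR, of binding partners and signaling genes of the members, and of FCER2. Other genes named above were not examined, and no naming rule picked FCER2. Of these groups, 4 exceeded the critical value, where chance gives about 2.2, a figure that does not allow for this choice of genes.

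IL4R in early library 2 stood apart with a ratio of 0.817, at a normalized read count of 202 against 91.4 in the next early library. JAK3 in late library 4 had a ratio of 0.877, at 307 against 209, on the side away from the early libraries. IL7R in early library 4 had a ratio of 0.784, at 562 against 329 in the next. FCER2, the low-affinity IgE receptor that IL-4 induces, had a ratio of 0.945 in early library 5, at 2566 against 150 in the next.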

How the results depend on the processing

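Apart from IL13RA1, which was chosen for its difference and for which no call is given, no member was called under any of the 20 alternatives run. The log2FC of IL4R, IL33, CRLF2 and OSMR kept its sign throughout, whereas that of IL31RA was -0.13 without early library 4 and ranged up to 0.77 without early library 2. The stricter filter removed CRLF2. The number of calls over all genes was 269, against 1121 with BH adjustment, 177 in edgeR and 810 in DESeq2, and 49 to 260 with a library left out. It was 49 without early library 5, 54 without late library 2, 66 without late library 4, 75 without early library 1, 87 without late library 1 and 113 without late library 5. In the pathway lists there were 3 calls, against 10 with BH adjustment, 7 in DESeq2 and 0 to 4 with a library left out. That count was 0 without early library 1 or 5 or late library 1, 2 or 5, and 1 without late library 4. Fits with a library left out tested fewer samples, and the cause of the other differences was not tested. The calls split into 131 higher and 138 lower in late tumors, and into 169 and 95 with column total scaling, which moved the median log2FC of all genes to 0.085. The list of the 5 genes nearest to IL13RA1, examined with alternatives chosen after seeing the data, kept 1 to 4 names with a library left out, and 4 or 5 with other pseudocounts or scaling. It kept 1 without early library 4 or late library 4, 2 without early library 1 or late library 1, 2 or 3, and 3 without early library 5 or late library 5. No paired analysis was possible because no replicate number of the labels stands in a column name and each library is from a different dog, so the replicate block was not run. Depth limited what could be seen of IL13RA2, IL1RL1, TSLP and the other ligands apart from IL33, which rested on few reads.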

Other observations

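CCL24, a chemokine that attracts eosinophils and is induced by IL-4 and IL-13, and its receptor CCR3 had their highest values in the same early libraries. The normalized read counts of CCL24 were 74.3, 152, 0, 0 and 114 in early and 8.95, 2.85, 9.68, 8.18 and 0 in late libraries. Those of CCR3 were 5.71, 60.5, 0, 5.51 and 37.6 in early and 0, 3.81, 9.68, 11.2 and 0 in late libraries. Both were highest in early library 2 and next highest in early library 5. Neither gene passed the filter, and both were picked out after their values were seen. EPX, the peroxidase of eosinophils, had 1 read in early and 19 reads in late libraries. CCL17, a ligand of CCR4, had 2 reads in early and 16 in late libraries, 11 of them in late library 4, and CCL26, another ligand of CCR3, had 1 read in each stage.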
